A study of Mus musculus with 12 samples.

Results

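*Cirbp* and *Rbm3* encode a pair of cold-inducible RNA-binding proteins, and they were followed here in undifferentiated spermatogonia of mouse testes that had been moved into the abdomen. They were taken as the 2 rows with these symbols among the 21859 genes of the expression table, and both were among the 16932 genes that passed the filter on low values (log2 of the mean RPM above -1, where RPM scales the reads of every library to the same total). Adult mice carrying a GFRa1-EGFP reporter were made cryptorchid on the left side by surgery, and the undisturbed right testes served as controls. On day 10 after surgery, GFRa1+/KIT- cells were sorted, and the RNA of about 200 cells went into each Smart-seq2 library. There were 5 control libraries, whose genotype is labelled WT, and 7 cryptorchid libraries, labelled Cryptorchid in the same field. Only surgery separates the groups by label, and the reporter is shared by all 12 libraries. Surgery on adult mice displaces a testis that had already descended, and the reporter marks a mixed population of stem and early progenitor cells. Which libraries came from the same mouse is not stated, so *P*-values measure the spread between these libraries.

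CIRBP and RBM3 are small, closely related proteins with a single RNA recognition motif followed by a glycine-rich tail. Both rise when cells are cooled mildly and fall when cells are warmed, and they bind mRNA to influence its stability, splicing and translation. The scrotal testis is cooler than the abdomen. CIRBP has been described in mouse male germ cells, where it falls with testicular warming, and RBM3 in Sertoli cells of the testis.

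The genes are paralogues, so whether their reads can be told apart was examined first. In the GENCODE vM21 annotation of GRCm38, *Cirbp* (ENSMUSG00000045193.13) lies on the plus strand at chr10:80165985-80172786 and has 7 annotated transcripts, of which 2 are protein-coding. *Rbm3* (ENSMUSG00000031167.16) lies on the minus strand at chrX:8138975-8145880 and has 11 transcripts, of which 6 are protein-coding. The coding sequences of 1 principal transcript each, of 519 bases in *Cirbp* and 465 bases in *Rbm3*, were identical at 330 of 453 aligned positions, or 72.8%. The stretch below is the most similar gap-free window of 90 bases, coding bases 71 to 160 in both, at 73.3% identity. It is shown as the closest window of this kind, and windows with gaps were not compared. Capitals mark the 24 mismatched bases:
Cirbp: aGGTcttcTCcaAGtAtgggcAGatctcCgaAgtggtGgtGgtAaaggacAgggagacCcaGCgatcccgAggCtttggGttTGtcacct
Rbm3: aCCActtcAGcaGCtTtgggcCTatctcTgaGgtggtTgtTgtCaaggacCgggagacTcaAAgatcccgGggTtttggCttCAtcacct
The mismatches are scattered through the window, and the longest exact run that the transcripts of both genes shared was 11 bases. *Rbm3* also has a processed pseudogene of 465 bases, Rbm3-ps, which shared an exact run of 197 bases with it, so reads from that run could align at either place. The antisense gene *Rbm3os* overlaps 94 exon bases of *Rbm3* (2.0% of its exons), and without a stated counting strand reads from those bases cannot be assigned to either gene.

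For *Cirbp*, the RefSeq promoter window (300 bases around the annotated start, mostly before it, GRCm38.p6, plus strand, chr10:80167589-80167888) is shown because it holds the element through which mild cold is known to act on this gene. Capitals mark the mild cold response element TCCCCGCC, which the transcription factor SP1 is known to bind, and 3 GC boxes (GGGCGG on either strand):
Cirbp promoter: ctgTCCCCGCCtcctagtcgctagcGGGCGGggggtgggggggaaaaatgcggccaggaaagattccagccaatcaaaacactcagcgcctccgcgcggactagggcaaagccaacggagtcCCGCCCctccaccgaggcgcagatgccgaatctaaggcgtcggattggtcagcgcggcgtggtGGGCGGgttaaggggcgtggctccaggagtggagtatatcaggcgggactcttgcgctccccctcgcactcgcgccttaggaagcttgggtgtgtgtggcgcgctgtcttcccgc
The mild cold response element began 247 bases before the start. Of 32851 promoter windows of 300 bases, 5.38% held it on either strand, and 10.7% held 3 or more GC boxes. A second *Cirbp* window in the same table held 4 GC boxes and no mild cold response element. The core of the heat shock element, GAANNTTC, was in neither window, against 7.86% of all windows. The GC content of the printed window was 65.7%, with a median of 52.7% over all windows.

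The libraries held 4511730 to 24345368 reads on genes in the control group and 3306771 to 20027902 in the cryptorchid group. They fell into 2 sets by replicate number: replicates 1 to 3 (3 control, 3 cryptorchid) had 6800360 or more reads on genes, and replicates 4 and above (2 control, 4 cryptorchid) had at most 5481947. In the first set, even read numbers were over-represented among genes with 1 to 20 reads (53.2% to 60.8%), and in the second they were not (48.2% to 50.5%). Whether the sets match the instruments used is not stated. Control 3 had the lowest control level of both genes, and results that rest on it are given with and without it. Markers of undifferentiated spermatogonia were present in both groups, with summed levels of 1540 to 2276 RPM in control and 1603 to 2762 RPM in cryptorchid libraries over 12 markers. Of these, 1 (*Nanos3*) was lower at unadjusted limma *P* under 0.05 and none higher, against 3.82% and 5.67% of all genes tested.

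*Cirbp* RNA was lower in cryptorchid spermatogonia. The control libraries, in replicate order, held 7.72, 7.67, 6.30, 7.56 and 6.85 log2 RPM. The 7 cryptorchid libraries ran from 5.51 through a median of 5.77 to 6.76 log2 RPM, and all of them lay below every control library other than control 3. The mean fell from 7.22 ± 0.625 (SD, n = 5) to 6.10 ± 0.561 log2 RPM (SD, n = 7), a change of -1.12 log2 units (SE 0.324) or 2.17-fold. This difference exceeded the spread between libraries (exact two-sided Wilcoxon rank sum test over 792 splits, *P*=0.0177, and 0.0354 after Benjamini-Hochberg adjustment over both genes). In the limma fit across all genes it had an unadjusted *P*=0.00287, the 196th smallest, and an adjusted *P*=0.248.

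*Rbm3* RNA was also lower on average, by less and with more spread among the controls. The control libraries held 7.42, 7.06, 5.39, 7.63 and 7.77 log2 RPM, again with control 3 far below the other four. In the cryptorchid libraries the lowest value was 5.55, the median 6.59 and the highest 6.76 log2 RPM, and as for *Cirbp* all 7 lay below every control other than control 3. Mean levels were 7.06 ± 0.967 (SD, n = 5) and 6.39 ± 0.423 log2 RPM (SD, n = 7), a difference of -0.67 log2 units (SE 0.362), or 1.59-fold. It did not exceed the spread between libraries (exact rank sum test, *P*=0.106, the same after adjustment over both genes, and limma adjusted *P*=0.584). These tests take the libraries as unpaired. With a term for each replicate number in limma, which pairs same-numbered libraries, the adjusted *P* was 0.0373 for *Rbm3* and 0.0427 for *Cirbp*. Whether same-numbered libraries share a mouse is not stated.

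**Figure D1:**
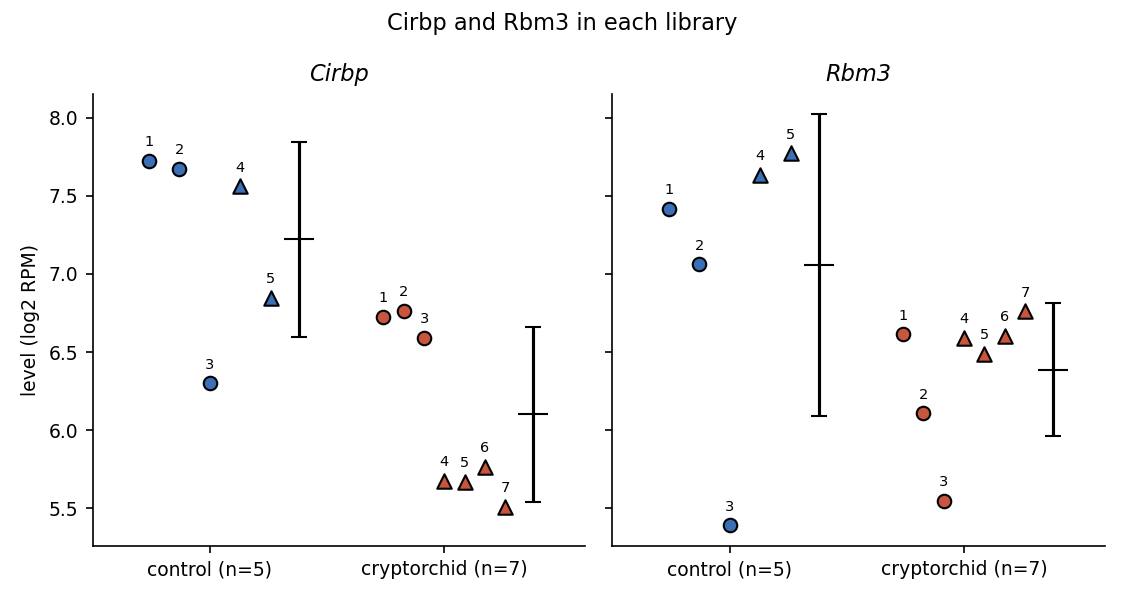
Level of *Cirbp* (left) and *Rbm3* (right) in log2 RPM on the vertical axis for each control (blue) and cryptorchid (red) library, with replicate numbers above the points. Circles are replicates 1 to 3, triangles replicates 4 and above, and the bars give the group mean ± SD. The cryptorchid points lie below all control points except that of control 3, which is at 6.30 for *Cirbp* and 5.39 for *Rbm3*.

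On the linear scale, mean *Cirbp* was 159.7 RPM in control and 73.3 RPM in cryptorchid libraries (ratio 0.459), and mean *Rbm3* was 153 and 86.5 RPM (ratio 0.567). *Cirbp* rested on 174 to 5874 reads per library and *Rbm3* on 307 to 4159. The widest exact 95% Poisson interval, that of *Cirbp* in cryptorchid 5, ran from 5.45 to 5.89 log2 RPM and did not reach the lowest control value of 6.30. Such intervals cover counting error only, since amplified reads without molecular identifiers are not independent molecules. Fewer cells of a type and less RNA per cell cannot be told apart in bulk libraries of this kind.

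Of all genes tested, 646 were lower at an unadjusted limma *P* under 0.05, which is 3.82% and includes *Cirbp* but not *Rbm3*. At a 2-fold change and the same *P*, 399 genes were lower (2.36%), *Cirbp* among them, and 603 were higher. That split of 399 lower and 603 higher became 542 and 457 under quantile normalization, and the median difference of all genes was 0.10 log2 units. After adjustment, 2 genes passed in either direction (0.0118%), neither of which was *Cirbp* or *Rbm3*.

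Control 3 weighed heavily on both genes. Without it, the *Cirbp* difference was -1.35 (exact rank sum test, *P*=0.00606) and that of *Rbm3* -1.08 (*P*=0.00606 by the same exact test), the smallest value that 4 against 7 libraries allow, since every cryptorchid library then lay below every control library. Control 3 was the only control not above all cryptorchid libraries, so leaving it out fixed this *P* for both genes. The share of all genes separated in this way was not counted. Cryptorchid 3, the library with the same number, was the lowest of its group for *Rbm3* (5.55 log2 RPM) but not for *Cirbp* (6.59 log2 RPM). When replicate 3 was left out of both groups, an alternative added after the values were seen, the differences were -1.43 for *Cirbp* and -0.94 for *Rbm3* (exact rank sum test, *P*=0.00952 for both). Control 3 had the smallest share of reads on genes of all 12 libraries (74.5%) and the largest share of even read numbers (60.8%). Its summed markers of differentiating spermatogonia (215 RPM) and macrophages (2.52 RPM) were the lowest of all libraries, while those of spermatids, Sertoli cells and undifferentiated spermatogonia (897, 71.6 and 1874 RPM) lay within the range of the other controls. The part of these in its *Cirbp* and *Rbm3* levels was not tested.

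Both genes were then compared within the replicate sets. In replicates 4 and above, the groups did not overlap for either gene. *Cirbp* there was 7.56 and 6.85 log2 RPM in control against 5.68, 5.67, 5.77 and 5.51 in cryptorchid libraries, a 2.92-fold difference (-1.55 log2 units). *Rbm3* was 7.63 and 7.77 against 6.59, 6.49, 6.60 and 6.76, a 2.13-fold difference (-1.09 log2 units). The exact *P* of 0.133 for each is the smallest that 2 against 4 libraries can give. Every cryptorchid library lay below every control library of this set for 2386 of all genes tested, or 14.1%, so that separation alone was common.

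In replicates 1 to 3 the groups overlapped. *Cirbp* was 7.72, 7.67 and 6.30 log2 RPM in control and 6.72, 6.76 and 6.59 in cryptorchid libraries, a difference of -0.54 (exact *P*=0.7, where 3 against 3 can go no lower than 0.1). *Rbm3* was 7.42, 7.06 and 5.39 against 6.61, 6.11 and 5.55, a difference of -0.53 (exact *P*=0.7). Replicates 1 and 2 of the cryptorchid group lay below the same-numbered controls for both genes, and replicate 3 lay slightly above its control (by 0.29 for *Cirbp* and 0.15 for *Rbm3*).

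Over the 300 splits that keep the sets apart, the exact rank sum *P* was 0.113 for *Cirbp* and 0.113 for *Rbm3*, so neither difference passed within sets. Leaving out 1 library, an alternative added after the values were seen, gave an exact *P* of 0.0133 for each gene without control 3, and of 0.107 to 0.28 for each without any of the other 11. With the set as a term in limma, the *Cirbp* difference was -1.01 (SE 0.290, unadjusted *P*=0.00258, adjusted *P*=0.169) and the *Rbm3* difference -0.80 (SE 0.317, unadjusted *P*=0.0217, adjusted *P*=0.344). The differences in the 2 sets were not shown to differ from each other: the limma interaction (replicates 4 and above minus replicates 1 to 3) was -1.01 for *Cirbp* (SE 0.551, unadjusted *P*=0.0856) and -0.56 for *Rbm3* (SE 0.647, unadjusted *P*=0.401), with an adjusted *P*=0.9996 for each.

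**Figure D2:**
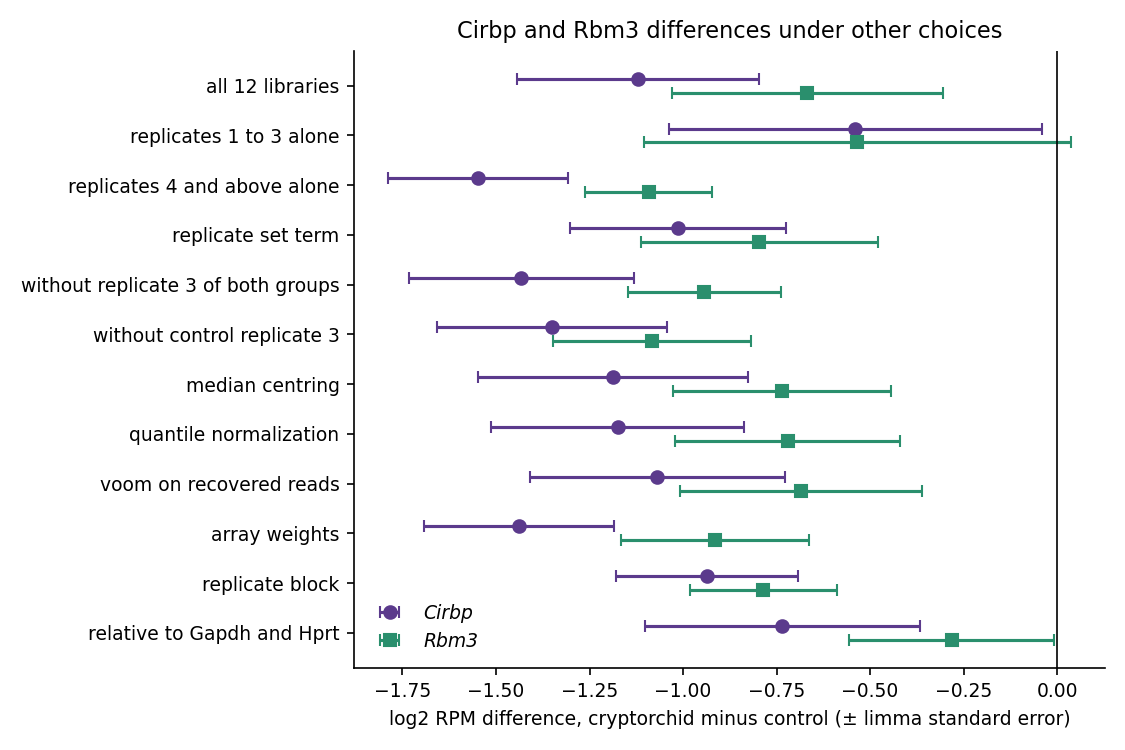
Difference in log2 RPM, cryptorchid minus control, of *Cirbp* (purple circles) and *Rbm3* (green squares) on the horizontal axis, with bars giving the limma standard error, for all 12 libraries and for the alternatives named on the vertical axis. Every point is below 0, from -0.54 to -1.55 for *Cirbp* and from -0.28 to -1.09 for *Rbm3*.

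Relative to the mean of *Gapdh* and *Hprt*, a pair of common reference genes, the differences were smaller: -0.73 for *Cirbp* (exact rank sum test, *P*=0.106) and -0.28 for *Rbm3* (*P*=0.268 by the same exact test). This scaling moved the median difference of all genes from 0.10 to 0.48, and since it shifts all genes of a library alike, *Cirbp* and *Rbm3* stay by construction at -1.22 and -0.77 measured from that median. *Gapdh* and *Hprt* were themselves lower on average in cryptorchid libraries, by -0.54 (limma adjusted *P*=0.722) and -0.23 (limma adjusted *P*=0.863). Median centring and quantile normalization left the *Cirbp* difference at -1.19 and -1.17, but its exact rank sum *P* rose to 0.0732 in both. The limma *P* of *Cirbp* there was 0.00402 and 0.00267 unadjusted, and 0.265 and 0.222 adjusted.

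Whether one gene changed more than the other was tested on the difference *Rbm3* minus *Cirbp* in each library. It averaged -0.17 ± 0.709 log2 units in control (SD, n = 5) and 0.29 ± 0.887 in cryptorchid libraries (SD, n = 7), which was within the spread (exact rank sum test, *P*=0.639, and *P*=1 within sets). The difference followed the replicate set: it was -1.04 to -0.11 in all 6 libraries of replicates 1 to 3 and 0.07 to 1.25 in all 6 of replicates 4 and above. The relative level of the genes in a library thus moved with the set. The part of depth in this was not tested.

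Cryptorchid levels of *Cirbp* also moved with the set, at 6.69 ± 0.0906 log2 RPM in replicates 1 to 3 (SD, n = 3) and 5.66 ± 0.106 in replicates 4 and above (SD, n = 4), without overlap. How many of all genes separate by set in this way was not counted. Control levels of *Cirbp* were 7.23 ± 0.809 (SD, n = 3) and 7.20 ± 0.504 (SD, n = 2). For *Rbm3*, the second set was higher on average in both groups, with controls at 6.62 ± 1.08 and 7.70 ± 0.0979, and cryptorchid libraries at 6.09 ± 0.534 and 6.61 ± 0.111 log2 RPM.

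*Cirbp* and *Rbm3* levels were correlated in replicates 1 to 3, where both groups are mixed and control 3 was the lowest library for both genes. How many other genes correlate as highly with either gene there was not counted. Across the 6 libraries of replicates 1 to 3, Pearson's *r* was 0.924 (exact permutation *P*=0.00972) and Spearman's rho 0.943 (exact permutation *P*=0.0167). Across the 6 of replicates 4 and above, *r* was 0.913 (exact permutation *P*=0.0597) and rho 0.60 (exact permutation *P*=0.242). Adjusted over the 8 relations computed, the *P*-values of *r* were 0.0389 and 0.159. Without the 2 libraries of each set farthest in *Cirbp*, which were its control 1 and control 2 or its control 4 and control 5, *r* was 0.79 in the first set and -0.69 in the second, over 4 libraries each. The relation in replicates 4 and above therefore rested on its control libraries. Over all 12 libraries, which mix the sets, *r* was 0.447 (permutation *P*=0.147) and rho 0.524 (permutation *P*=0.0833). It was 0.430 without cryptorchid 7 and control 1, the 2 libraries farthest in *Cirbp*, and -0.617 in the 7 cryptorchid libraries (exact permutation *P*=0.127). With values centred on the group means, *r* over the 12 libraries was 0.188 (permutation *P*=0.580) and rho -0.028 (permutation *P*=0.940). With values centred on the replicate sets, which keeps the group difference, *r* was 0.865 (permutation *P*=0.00056, adjusted *P*=0.00448) and rho 0.790 (permutation *P*=0.00342).

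**Figure D3:**
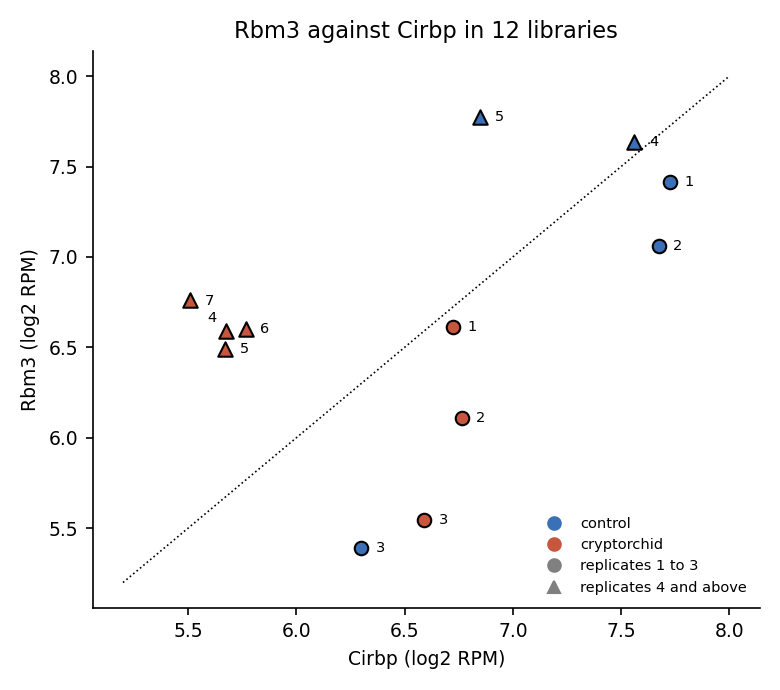
*Rbm3* against *Cirbp*, both in log2 RPM, with 1 point per library (blue control, red cryptorchid, circles replicates 1 to 3, triangles replicates 4 and above, replicate numbers beside the points). The dotted line marks equal levels: the 6 circles lie below it and the 6 triangles above it, by 0.07 log2 units for control 4.

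Compared per length, the order of the genes depended on the transcript taken. Over all exons of protein-coding transcripts (1413 bases for *Cirbp*, 3576 for *Rbm3*), control levels were 6.72 ± 0.625 and 5.22 ± 0.967 log2 RPM per kilobase (SD, n = 5), and cryptorchid levels 5.60 ± 0.561 and 4.55 ± 0.423 (SD, n = 7). With single transcripts of 1321 bases for *Cirbp* and 1152 bases for *Rbm3*, control levels were 6.82 ± 0.625 and 6.85 ± 0.967 log2 RPM per kilobase, and cryptorchid levels 5.70 ± 0.561 and 6.18 ± 0.423. Which *Rbm3* transcript the reads came from was not tested, so no order of the genes is drawn.

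The closest protein-coding gene on each side was tested where the data held it, and none passed. *Midn*, 7616 bases from *Cirbp*, had a difference of 0.16 log2 units (limma adjusted *P*=0.921). *Wdr13* and *Tbc1d25*, 6082 and 8591 bases from *Rbm3*, had differences of 0.42 (limma adjusted *P*=0.793) and -0.75 (limma adjusted *P*=0.619). *1600002K03Rik*, which starts 157 bases from *Cirbp*, and *Rbm3os* were not analysed here.

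The 5 genes whose levels over the 12 libraries were most like those of *Cirbp*, among 11413 genes with a log2 mean RPM above 3, are given by Pearson's *r* as a description. They were *Shmt2* (0.957), a mitochondrial enzyme of serine and glycine metabolism, *Eef2* (0.949), an elongation factor of translation, *Gpi1* (0.944), a glycolytic enzyme, *Pdgfb* (0.939), a growth factor, and *Mvd* (0.939), an enzyme of sterol synthesis. Their differences between the groups ran from -1.01 to -0.57 log2 units. For *Rbm3*, such genes were *Mrpl55* (0.949), a mitochondrial ribosomal protein, *Pank4* (0.949), of the pantothenate kinase family, *Jpt1* (0.945) and *Psmg2* (0.935), a proteasome assembly chaperone, with differences of -0.67 to -0.33 log2 units. *Rbm3* stood 1587th in the order for *Cirbp*, and *Cirbp* 3986th in that for *Rbm3*. All points share their libraries, and with them the depth and the replicate sets.

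Genes known to act with, on or after CIRBP and RBM3 passed the test at about the share of all genes. Of 15 such genes, 1 was higher at limma *P* under 0.05 and none lower, against 5.67% higher and 3.82% lower among all genes, and the median difference was -0.0015 against 0.10 log2 units for all genes. The one was *Clk4* at +0.84 (SE 0.353, limma unadjusted *P*=0.0291, adjusted *P*=0.469), a kinase of splicing factors whose activity is known to depend on temperature. It lay at 4.58 to 5.93 log2 RPM in control and 4.98 to 7.24 in cryptorchid libraries, with overlap, and the exact rank sum *P* was 0.0732. Leaving out control 2, control 3, cryptorchid 6 or cryptorchid 7 raised its limma *P* above 0.05, to between 0.0564 and 0.0777. Its relative *Clk1* had a difference of +0.57 (SE 0.282, limma unadjusted *P*=0.0582, adjusted *P*=0.542), just outside the unadjusted threshold.

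Of the 14 members of the list that did not pass, the following are given for their roles or the size of their difference. *Dyrk1b*, a kinase that CIRBP binds, was at -0.33 (limma adjusted *P*=0.763). *Cdkn1b*, the cell cycle inhibitor p27, was at 0.15 (limma adjusted *P*=0.957), and *Ccnd1*, cyclin D1, at 0.32 (limma adjusted *P*=0.786). *Sp1*, the factor known to bind the cold element printed above, was at 0.50 (limma adjusted *P*=0.673). *Hnrnph1*, a splicing regulator described for an *Rbm3* exon, was at -0.06 (limma adjusted *P*=0.970), and *Rtn3*, a protein whose translation RBM3 raises in neurons, at 0.15 (limma adjusted *P*=0.863). *Ntrk2*, the receptor TrkB described upstream of RBM3, was at 0.67 (limma adjusted *P*=0.791), and *Trpm8*, a cold-gated channel, at -0.65 (limma adjusted *P*=0.708).

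None of 7 related RNA-binding proteins passed the limma test in either direction, against 5.67% higher and 3.82% lower among all genes. Their median difference was 0.24 against 0.10 log2 units for all genes. The smallest *P*-values were those of *Rbmy*, a Y-linked germ cell splicing protein, at 0.70 (limma adjusted *P*=0.768), and *Rbmxl1*, at 0.37 (limma adjusted *P*=0.775). *Rbmy* has near-identical copies, so its reads are uncertain. The related genes include *Rbmx* at -0.04 log2 units (limma adjusted *P*=0.986) and *Nono* at -0.13 (limma adjusted *P*=0.895).

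CIRBP is known to bind transcripts of circadian clock genes. Among 10 clock genes, 1 rose and 1 fell at an unadjusted limma *P* under 0.05, against 5.67% and 3.82% of all genes, and the median difference was 0.12 against 0.10 log2 units for all genes. *Nr1d2*, a repressor of the clock, rose by 0.72 log2 units (SE 0.244, limma unadjusted *P*=0.00846, adjusted *P*=0.359). Its levels spanned 5.60 to 6.53 log2 RPM in control and 6.06 to 6.95 in cryptorchid libraries. *Per1*, a period gene, fell by 1.25 log2 units (SE 0.490, limma unadjusted *P*=0.0199, adjusted *P*=0.430). Its levels spanned 6.50 to 7.84 log2 RPM in control and 3.95 to 7.89 in cryptorchid libraries. The groups overlapped for each gene, and without control 3 the *P* of *Per1* was 0.0615 in limma. *Clock* and *Arntl*, the activators, were at 0.33 (limma adjusted *P*=0.815) and 0.45 (limma adjusted *P*=0.709).

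Heat shock genes, known to respond to temperature in the opposite direction, were set beside the cold-inducible genes. Of 12, 1 was higher and none lower at limma *P* under 0.05, against 5.67% and 3.82% of all genes. In 10 of the 12 the mean was higher in cryptorchid libraries, as it was in 9596 of the 16932 genes tested, and the median difference was 0.30 against 0.10 log2 units for all genes. *Hsph1*, an HSP110 chaperone, rose by 1.20 log2 units (SE 0.246, limma unadjusted *P*=0.000126, adjusted *P*=0.129). It ran from 6.02 to 6.62 log2 RPM in control and from 6.89 to 8.08 in cryptorchid libraries, without overlap (exact rank sum test, *P*=0.00253, the smallest these numbers allow). The share of all genes without overlap was not counted. *Serpinh1*, the collagen chaperone HSP47, had a difference of +1.32 (SE 0.641, limma unadjusted *P*=0.0540, adjusted *P*=0.535). Without control 3, its lowest control, this was +0.72 (limma unadjusted *P*=0.201). *Hsp90aa1* was at 0.87 (limma adjusted *P*=0.540, exact rank sum *P*=0.0303) and *Hspa8* at 0.63 (limma adjusted *P*=0.682). *Hsf1*, which drives the heat shock response, was at 0.03 (limma adjusted *P*=0.980). The heat-inducible *Hspa1a* and *Hspa1b*, the only 2 of the 12 with a lower mean, were at -1.02 (limma adjusted *P*=0.778) and -0.96 (limma adjusted *P*=0.684) at low levels. Reads of *Hspa1a* and *Hspa1b* are uncertain because these genes are near-identical copies.

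**Figure D4:**
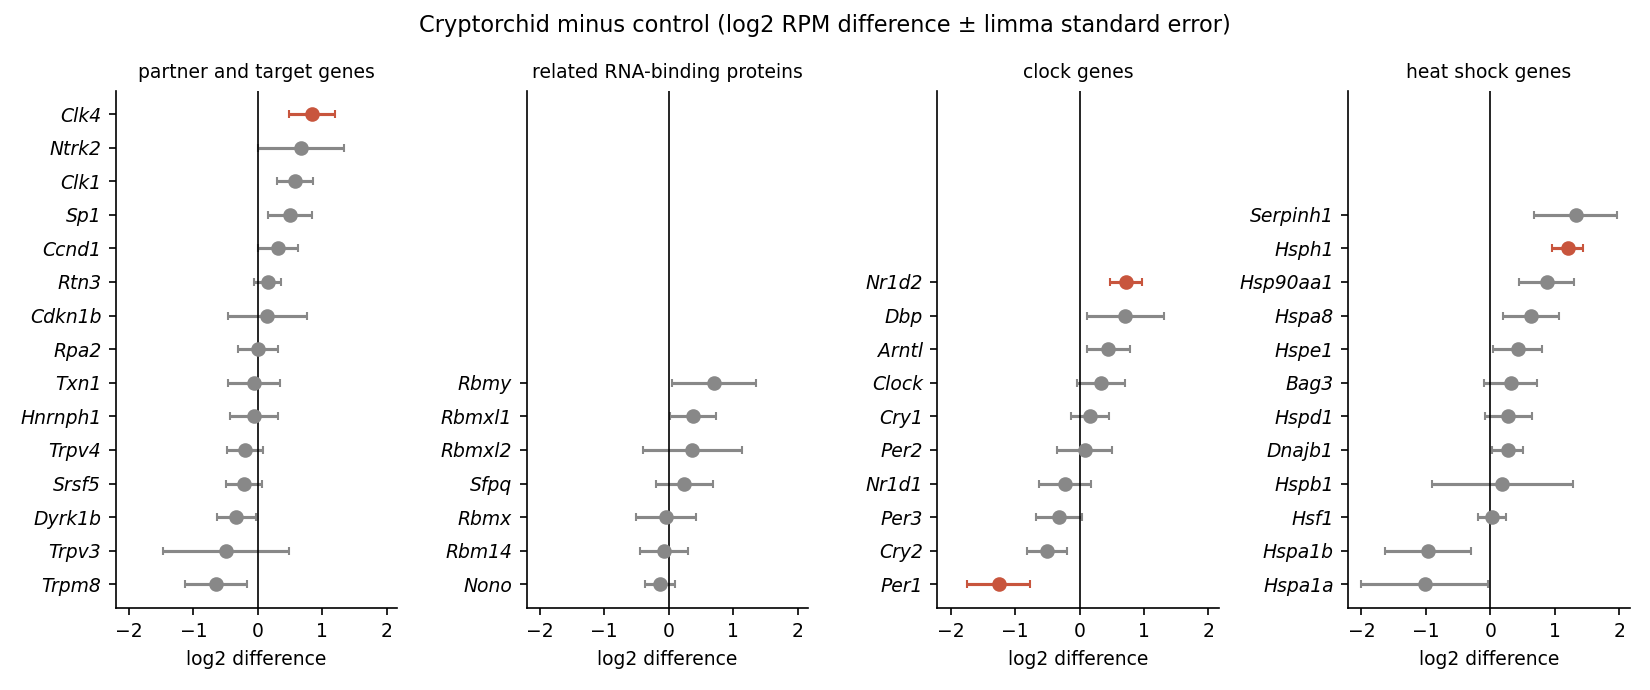
Difference in log2 RPM, cryptorchid minus control, of each gene of the 4 lists (partner and target genes, related RNA-binding proteins, clock genes, heat shock genes), with bars giving the limma standard error. Red points have an unadjusted limma *P* under 0.05: *Clk4* at 0.84, *Nr1d2* at 0.72, *Per1* at -1.25 and *Hsph1* at 1.20, and the other 40 genes are grey.

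Markers of other cells moved between the groups too. Of 8 spermatid markers, 3 (*Prm1*, *Prm2* and *Odf1*) were lower in cryptorchid libraries at unadjusted limma *P* under 0.05, against 3.82% of all genes. The summed level of the list was 547 to 3163 RPM in control and 21.3 to 2101 RPM in cryptorchid libraries. Cryptorchid 6 held the highest spermatid sum of its group, 2101 RPM. This sum was within the control range. Its *Cirbp* and *Rbm3* (5.77 and 6.60 log2 RPM) lay below both control libraries of its set, as in every cryptorchid library of that set. These values concern cryptorchid 6 alone, and the part of spermatid RNA in either gene was not tested. Sertoli cell markers, 10 in all, summed to 46.3 to 249 RPM in control and 42.4 to 249 RPM in cryptorchid libraries, and none of the 9 tested passed. Of 4 endothelial markers, 2 (*Cdh5* and *Vwf*) were higher, against 5.67% of all genes. The endothelial sums were 10.0 to 28.4 RPM in control and 18.4 to 44.3 RPM in cryptorchid libraries.

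Among 6 differentiating spermatogonia markers, *Stra8* was higher and *Dnmt3b* lower, against 5.67% and 3.82% of all genes. The list summed to 215 to 504 RPM in control and 247 to 427 RPM in cryptorchid libraries. Of 8 spermatocyte markers, 0 passed (642 to 1914 and 576 to 2060 RPM). Leydig (8.84 to 16.0 and 5.53 to 48.1 RPM), peritubular myoid (1.78 to 16.4 and 0.559 to 13.2 RPM), macrophage (2.52 to 22.2 and 7.72 to 27.3 RPM) and lymphocyte markers (0.410 to 8.11 and 1.26 to 12.9 RPM) were low in both groups, and none tested passed. *Cyp17a1* of Leydig cells and *Cd8a* of lymphocytes had at most 3 reads in every library. The part of other cells in the *Cirbp* and *Rbm3* differences was not tested. Control testes were digested at a lower temperature than cryptorchid testes when cells were prepared, and this step and the surgery cannot be told apart in either gene.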

How the data were processed

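Values were deposited as log2 RPM per gene. The authors trimmed reads with Trim Galore 0.6.6, aligned them to mm10 with HISAT2 2.1.0, used SeqMonk to count reads on protein-coding genes and to express them as log2 RPM, with FastQC 0.11.8 for quality. The counting strand and any removal of duplicates are not given in the sources used here, and datasets with excessive duplicates had been left out. Count tests were not used, since the deposited unit is not counts.

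Libraries were grouped by their titles. Whole reads were recovered from the RPM steps (100% within 0.02 of a whole number below 1000 reads, and a gene without reads is listed at the equivalent of 0.9 reads). The 31 replicate pairs differed by 13.5 to 264 times counting noise, so all libraries were counted. Differences, standard errors and Benjamini-Hochberg adjusted *P*-values came from limma 3.58.1 (R 4.3.3, with trend) over 16932 genes. *Cirbp* and *Rbm3* were also tested by exact two-sided rank sum tests (Python 3.11.15), and results within replicate sets were added. The limma step was tested on simulated data without replicate sets, where it recovered 92% of changes of 3 log2 units. Those changes were larger than the differences of *Cirbp* and *Rbm3*, so recovery at their size was not tested. Of each list, genes with limma *P* under 0.05 and otherwise those with the smallest *P* were named. Other named members are given for their role and were chosen after their values were seen. The genes and lists were chosen with earlier results of these data known. Promoters are from RefSeq, where 1 of the 2 genes matched. Alternatives were other scalings, pseudocounts of 1 and 0.1, filters, library weights, voom, a replicate block, a set term and leaving out libraries. One of the genes most like *Rbm3* in pattern is not reported here.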

Additional observations from a re-analysis of the deposited data

Results flagged for a closer look

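A sample far from the others of its group was looked for in the named genes (22 groups of 10 genes), where chance alone marks about 1 in 20 groups. There were 2 such samples. Control 2 was the highest control for *Nr1d2*, at 6.53 log2 RPM, with a gap to the next control of 0.790 of the group's range. Control 3 was the lowest control for *Serpinh1*, at -0.54 log2 RPM, with a gap of 0.746 of the range.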

How the results depend on the processing

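The *Cirbp* difference stayed negative under every alternative run, at -1.35 to -0.99 with 1 library left out (exact rank sum *P*=0.00606 to 0.0424). Its exact *P* missed the threshold under median centring (-1.19), quantile normalization (-1.17) and relative to *Gapdh* and *Hprt* (-0.73). In limma, the unadjusted *P* under these scalings was 0.00402, 0.00267 and 0.0623. The *Rbm3* difference stayed negative, at -1.08 to -0.49 with 1 library left out (exact *P*=0.00606 to 0.230). By the exact test it passed without replicate 3 of both groups (-0.94). By unadjusted limma *P* it passed with array weights (-0.91), voom (-0.69) and the set term (-0.80). Median centring and quantile normalization also gave *Rbm3* a limma *P* under 0.05 (0.0211 and 0.0270), while its exact *P* stayed at 0.106. As a ratio of mean RPM it passed too (-0.82). Within sets, both passed without replicate 3 of both groups (*Cirbp* -1.29, *Rbm3* -1.0) and ran from -1.29 to -0.77 and from -1.12 to -0.64 with 1 library left out. The change of *Rbm3* minus that of *Cirbp* was 0.27 to 0.73. Pearson's *r* of both genes over all 12 libraries was 0.447, and 0.34 to 0.51 with 1 library left out, but -0.62 in the 7 cryptorchid libraries alone. The cause of these shifts was not tested.

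Same-numbered libraries correlated in their deviations from the group means at *r* = 0.347, 0.363, 0.411, 0.250 and 0.0488, so the numbers were not taken to pair the samples, although controls 1 to 4 each correlated best with their own number. With the replicate block, the differences were -0.94 for *Cirbp* and -0.79 for *Rbm3* (limma adjusted *P*=0.0427 and 0.0373, against 0.248 and 0.584 without it), and 1678 genes were called. At a limma adjusted *P* under 0.05, 949 genes passed with the block, against 2 without it. With array weights and no pairing, the limma adjusted *P* was 0.00896 for *Cirbp* and 0.0535 for *Rbm3*, and 476 genes passed adjustment. Control 3 had the lowest weight there (0.368). After adjustment, the results thus depend on how libraries are weighted and on whether same-numbered libraries are paired. The pairing is not stated.

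At 2-fold and *P* under 0.05, 1002 genes were called in all, 1585 with array weights, 1658 relative to *Gapdh* and *Hprt* (1533 higher, 125 lower), 632 in replicates 1 to 3 alone and 829 to 1248 with 1 library left out. Of the partner and target genes, 1 passed, 2 with array weights or without replicate 3 of both groups, 3 with the block and 0 to 2 with 1 library left out. Of the clock genes, 1 to 3 passed with 1 library left out. Of the heat shock genes, 1 passed, 2 under median centring, log2(RPM + 1), voom, no filter, a filter at 2 or without replicate 3 of both groups, 3 with array weights, 4 with the block and 1 to 4 with 1 library left out. The widest counting interval of either gene spanned 0.437 log2 units, which covers counting error only.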
